A study of Mus musculus with 4 samples.

Results

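The mitochondrial ribosomal protein genes are the nuclear genes whose products build the ribosome inside mitochondria. They were taken as every gene whose symbol begins with Mrpl or Mrps followed by a digit, each represented by its brightest probe set by the mean over all arrays. This gave 76 genes, from 156 probe sets, of 18193 genes with a probe set of a single symbol. The symbol rule and the choice of probe set used no difference between the cell types. The group itself was chosen with earlier results of these data known. Expression was measured on 4 Affymetrix arrays, 2 of long-term haematopoietic stem cells (LT-HSC, lineage-negative cKit+ Sca1+ CD34- CD135-) and 2 of the short-term kind (ST-HSC, in which CD34 was positive and the gate otherwise the same), sorted from mouse bone marrow.

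All mice were controls on a C57BL/6 background without the Mx-Cre transgene, and each group was treated with poly(I:C), an inducer of interferon, in 7 injections. Both LT-HSC replicates (1 and 2) were prepared 4 weeks after the last injection from mice aged 7.5 weeks, as was ST-HSC replicate 2. For ST-HSC replicate 3 the mice were 8.5 weeks old and the interval was 3 weeks, so its age and interval cannot be told apart from the replicate. Both ST-HSC samples carry a tissue label that reads LT-HSC beside a CD34+ gate, and the groups follow the titles. Nothing states whether the LT-HSC arrays came from separate mice or pools, so their spread may be technical.

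Mitochondria keep a small genome that encodes core subunits of the respiratory chain, and these are made by a ribosome of their own, the mitoribosome. Its ribosomal RNAs come from mitochondrial DNA, while every one of its proteins is made in the cytosol from nuclear genes and imported. Some of these proteins have a counterpart in the bacterial ribosome and others occur only in mitochondria. The large subunit forms peptide bonds and the small subunit decodes the messenger RNA. Blood stem cells are known to rely little on respiration while quiescent, and their progeny more.

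Few of these genes differed between the cell types beyond the spread of the arrays. Differences are LT-HSC minus ST-HSC on the scale of log2(normalized intensity + 16), with the moderated standard error (SE), and a gene is called where limma's p was under 0.05 after Benjamini-Hochberg adjustment across every tested probe set. All 76 genes passed the filter on dim probe sets. In limma 1 gene, Mrpl57, was higher in LT-HSC and 2, Mrpl50 and Mrpl49, were lower, while 73 did not pass and 16 had an unadjusted p under 0.05. Over all 12832 tested genes, 7.92% were called higher in LT-HSC and 6.4% lower, and 33.1% had an unadjusted p under 0.05. The median difference was -0.32 over the 76 genes and -0.08 over all tested genes. Differences were below 0 for 59 of the 76 (77.6%), against 54% of all tested genes.

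The genomic sequence around the starts of the called genes is shown because these 3 carry the only calls. RefSeq (GRCm38.p6) promoter windows, from 250 bases before to 50 bases after a gene's start, were found for 67 of the 76 genes. The Mrpl57 window is chr14:57825989-57826288 on the plus strand, the Mrpl50 window chr4:49521034-49521333 on the minus strand, and the Mrpl49 window chr19:6057706-6058005 on the minus strand. Sequences run 5′ to 3′ along the gene's strand. Capitals mark the motifs searched on both strands: the NRF1 core TGCGCA and a longer form GCGCATGC, which can overlap each other, the ETS motif of GABPA CCGGAAG, the YY1 motif ATGGCGG, the E-box CACGTG and the GC box of SP1 GGGCGG.
Mrpl57: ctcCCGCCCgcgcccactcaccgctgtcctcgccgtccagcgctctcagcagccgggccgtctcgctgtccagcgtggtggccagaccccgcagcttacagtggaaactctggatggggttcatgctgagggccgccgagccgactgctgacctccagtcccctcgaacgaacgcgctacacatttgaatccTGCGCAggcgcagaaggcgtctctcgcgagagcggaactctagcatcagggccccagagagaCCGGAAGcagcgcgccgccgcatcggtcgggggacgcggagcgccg
Mrpl50: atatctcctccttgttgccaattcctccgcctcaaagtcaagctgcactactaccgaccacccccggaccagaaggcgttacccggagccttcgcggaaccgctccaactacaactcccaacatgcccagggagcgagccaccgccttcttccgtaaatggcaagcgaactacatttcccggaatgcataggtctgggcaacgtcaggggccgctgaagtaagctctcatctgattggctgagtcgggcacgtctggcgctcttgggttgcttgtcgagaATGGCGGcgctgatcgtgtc
Mrpl49: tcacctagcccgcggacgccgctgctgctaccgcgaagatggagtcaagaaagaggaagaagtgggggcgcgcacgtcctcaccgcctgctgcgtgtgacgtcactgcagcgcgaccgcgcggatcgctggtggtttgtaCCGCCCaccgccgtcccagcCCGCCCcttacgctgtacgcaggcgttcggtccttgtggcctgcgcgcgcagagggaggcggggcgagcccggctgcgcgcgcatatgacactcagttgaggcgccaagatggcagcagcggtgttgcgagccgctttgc

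The Mrpl57 window held the NRF1 core, the ETS motif and a GC box, the Mrpl49 window GC boxes alone, and the Mrpl50 window the YY1 motif alone, which began 30 bases after the start. NRF1 and GABPA are factors known for driving nuclear genes of mitochondrial proteins. Of the 73 windows of these genes 22 (30.1%) held the NRF1 core, against 7.76% of all 32851 windows. The longer NRF1 form stood in 8 (11%), against 2.71% of all windows. The ETS motif stood in 25 (34.2%), against 8.86%, and the YY1 motif in 12 (16.4%), against 4.05%. The E-box, which Myc binds, stood in 7 (9.59%), against 7.15%. Counted by gene, the E-box stood in 5 of 67 (7.46%), against 8.09% of all genes, so it was no more frequent here. The GC box stood in 39 (53.4%), against 35.7%. The windows had a median GC content of 58.7%, against 52.7% over all windows, and the part of GC content in these shares was not tested. A match is a run of letters and not a bound site. Genes with and without the ETS motif had median differences of -0.25 (n = 25) and -0.34 (n = 42), and those with and without the NRF1 core -0.33 (n = 21) and -0.32 (n = 46).

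Mrpl57 encodes a small protein of the large subunit with no bacterial counterpart. Its probe set read 2566 and 2676 intensity units on LT-HSC replicates 1 and 2, against 788 and 969 on ST-HSC replicates 2 and 3. Both LT-HSC arrays lay above both ST-HSC arrays, and each pair was close. The log2 means were 11.22 ± 0.08 in LT-HSC and 9.86 ± 0.16 in ST-HSC (SD, n = 2 each), a 2.58-fold difference (1.37, SE 0.20, limma adjusted p = 0.00994). Its second probe set read 93.3 and 88.7 on the LT-HSC arrays, against 27.3 and 24.3 on the ST-HSC arrays and was called in the same direction (1.47, SE 0.31, limma adjusted p = 0.0289).

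Mrpl50, a mitochondria-specific protein of the large subunit, read 87.6 and 131 in LT-HSC, compared with 338 and 367 in ST-HSC. The groups did not overlap, with log2 means of 7.03 ± 0.20 in LT-HSC and 8.50 ± 0.13 in ST-HSC (SD, n = 2 each). It fell by 1.47 (SE 0.30, limma adjusted p = 0.0269). Its other probe set differed by -0.80 and did not pass. Mrpl49, also mitochondria-specific and in the large subunit, read 59.2 and 106 on the LT-HSC arrays, against 218 and 287 on the ST-HSC arrays. Again both LT-HSC arrays were the lower ones. It fell by 1.34 (SE 0.34), with an adjusted p of 0.0494 in limma, just inside the threshold. Its other probe set differed by only -0.16, with overlapping groups.

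**Figure D1:**
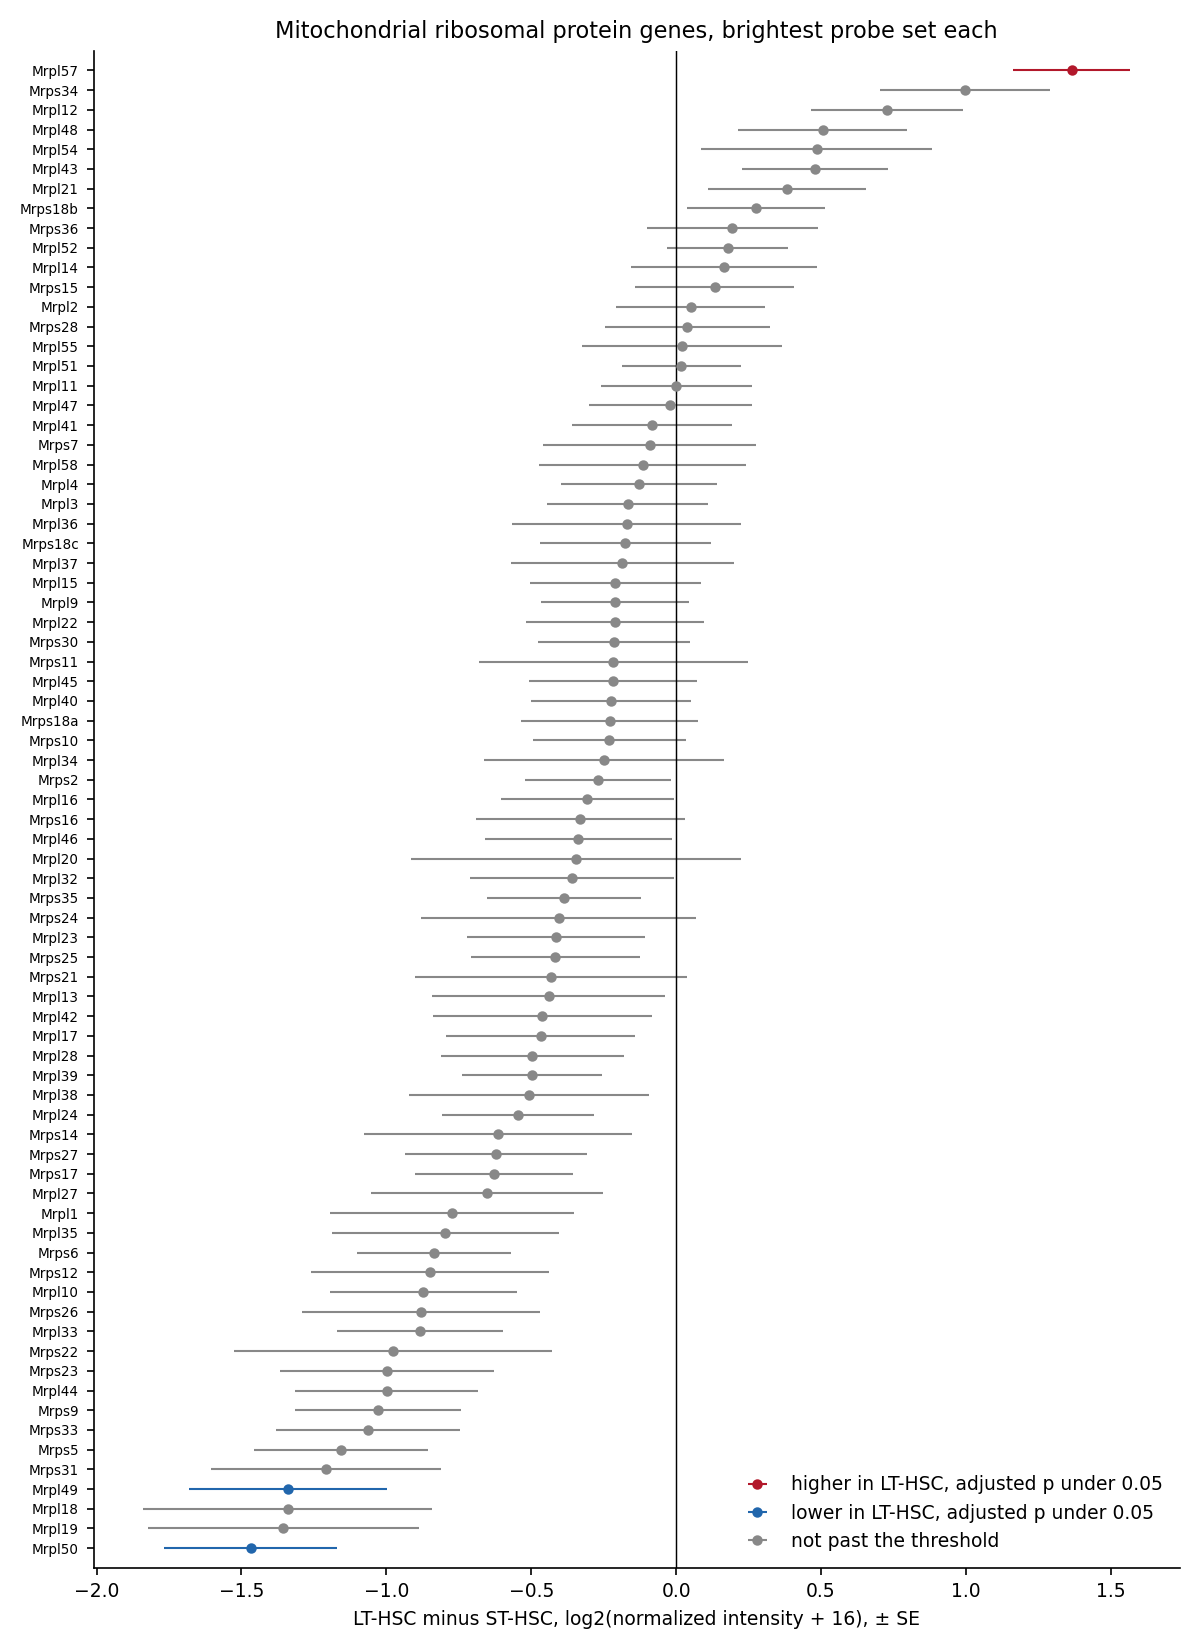
Differences between LT-HSC and ST-HSC (log2 of normalized intensity plus 16, horizontal axis) for the 76 mitochondrial ribosomal protein genes, each point 1 gene with its moderated SE. Mrpl57 at the top and Mrpl50 and Mrpl49 near the bottom are the coloured, called genes, and most grey points lie left of 0.

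The groups did not overlap for 8 genes with LT-HSC above and 33 with LT-HSC below (10.5% and 43.4% of 76). Over all tested genes these shares were 28.6% and 35.7%. Both subunits had medians below 0. Of 49 genes of the large subunit, 1 was called higher and 2 lower, with a median difference of -0.22. Of 26 genes of the small subunit none (0) was called in limma, 7 had an unadjusted p under 0.05, and the median was -0.42. This count places Mrps18a and Mrps30 in the large subunit, where their proteins sit despite their names. Mrps36 is in neither, since its protein is now assigned to the oxoglutarate dehydrogenase complex. Of 44 genes with a bacterial counterpart none (0) was called in limma, 8 had an unadjusted p under 0.05, and the median was -0.34. The 31 mitochondria-specific genes held all 3 calls, with a median of -0.23. The differences between these subgroups were not tested.

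Among genes of the small subunit, 9 had differences of -0.83 or below without passing (Mrps31, Mrps5, Mrps33, Mrps9, Mrps23, Mrps22, Mrps26, Mrps12 and Mrps6, adjusted p from 0.052 to 0.276 in limma). In all 9 both LT-HSC arrays lay below both ST-HSC arrays, which a choice by the size of the difference makes likely. Mrps5, which has a bacterial counterpart, came nearest to the threshold. It read 29.8 and 39.8 in LT-HSC, compared with 107 and 108 in ST-HSC (-1.16, SE 0.30, limma adjusted p = 0.052), and it passed under 3 alternative settings that kept all arrays. Mrps9, a protein of the subunit's head, read 226 and 316 on the LT-HSC arrays, against 511 and 644 on the ST-HSC arrays (-1.03, SE 0.29, limma adjusted p = 0.0619). Mrps33, found only in mitochondria, read 195 and 233 in LT-HSC, compared with 395 and 607 in ST-HSC (-1.06, SE 0.32, limma adjusted p = 0.0742). In each of these the groups stood apart. Mrps6 read 292 and 280 on the LT-HSC arrays, against 536 and 505 on the ST-HSC arrays (-0.83, SE 0.27, limma adjusted p = 0.0876), and was 1 of 8 genes that read lower on ST-HSC replicate 3 than on replicate 2.

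In the other direction, Mrps34, needed for a stable small subunit, read 826 and 1095 in LT-HSC, compared with 389 and 547 in ST-HSC. The groups did not overlap and the difference was 0.996 (SE 0.29, limma adjusted p = 0.0727). Mrps18b read 1029 and 1065 on the LT-HSC arrays, against 862 and 735 on the ST-HSC arrays (0.28, SE 0.24, limma adjusted p = 0.473). Its paralogues did not share its side. Mrps18a read 208 and 239 in LT-HSC, compared with 247 and 320 in ST-HSC (-0.23), and Mrps18c read 673 and 803 on the LT-HSC arrays, against 614 and 1003 on the ST-HSC arrays (-0.18), neither past the threshold and both with groups that overlapped after normalization. The remaining genes of the small subunit lay closer to 0. Mrps17, Mrps27, Mrps14, Mrps21, Mrps25 and Mrps24 ranged from -0.63 to -0.41. Mrps35, Mrps16, Mrps2, Mrps10, Mrps11, Mrps18c and Mrps7 ranged from -0.39 to -0.09, and Mrps28 and Mrps15 differed by 0.04 and 0.13. Mrps36, outside both subunits, differed by 0.19.

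In the large subunit, 7 genes had differences of -0.77 or below without passing (Mrpl19, Mrpl18, Mrpl44, Mrpl33, Mrpl10, Mrpl35 and Mrpl1, adjusted p from 0.0858 to 0.264 in limma). Both LT-HSC arrays were below both ST-HSC arrays in all 7, again genes chosen by the size of the difference. Mrpl18 read 143 and 237 in LT-HSC, compared with 320 and 867 in ST-HSC, and Mrpl19 read 93.6 and 116 on the LT-HSC arrays, against 205 and 508 on the ST-HSC arrays. Their differences of -1.34 (SE 0.50) and -1.36 (SE 0.47) were as large as that of Mrpl49 but had wider errors, since the ST-HSC arrays lay far apart. Mrpl44, a protein related to ribonuclease III, read 305 and 359 in LT-HSC, compared with 518 and 872 in ST-HSC (-0.999, SE 0.32). Mrpl33 read 493 and 466 on the LT-HSC arrays, against 684 and 1085 on the ST-HSC arrays (-0.88, SE 0.29).

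Of the large subunit genes on the other side, Mrpl12, the stalk protein that in human cells also binds the mitochondrial RNA polymerase, read 1162 and 1037 in LT-HSC, compared with 506 and 747 in ST-HSC. The groups did not overlap (0.73, SE 0.26, limma adjusted p = 0.117). Mrpl48, Mrpl54, Mrpl43 and Mrpl21 differed by 0.51, 0.48, 0.48 and 0.38. Of these only Mrpl54 had overlapping groups, with 214 and 166 on the LT-HSC arrays, against 107 and 189 on the ST-HSC arrays. A band of genes lay near 0. Mrpl51 read 2369 and 2445 in LT-HSC, compared with 1646 and 2272 in ST-HSC (0.02, SE 0.21 on normalized values). Mrpl52 read 1798 and 1864 on the LT-HSC arrays, against 1207 and 1599 on the ST-HSC arrays (0.18, SE 0.21), and Mrpl3, close to the site of peptide bond formation, read 1955 and 1799 in LT-HSC, compared with 2286 and 1413 in ST-HSC (-0.17, SE 0.28). None of these 3 passed, and the groups of each overlapped after normalization. Mrpl2, Mrpl11, Mrpl14 and Mrpl55 lay between 0.00 and 0.16. The dim Mrpl14 read 67.3 and 95.9 on the LT-HSC arrays, against 71.6 and 87.7 on the ST-HSC arrays. Mrpl27, Mrpl24, Mrpl38, Mrpl39, Mrpl28, Mrpl17, Mrpl42, Mrpl13 and Mrpl23 ranged from -0.65 to -0.41. The others ranged from -0.36 to -0.02, among them Mrpl58, a peptide release factor built into the large subunit (-0.12), and Mrpl45, which lies at the exit tunnel facing the membrane (-0.22).

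**Figure D2:**
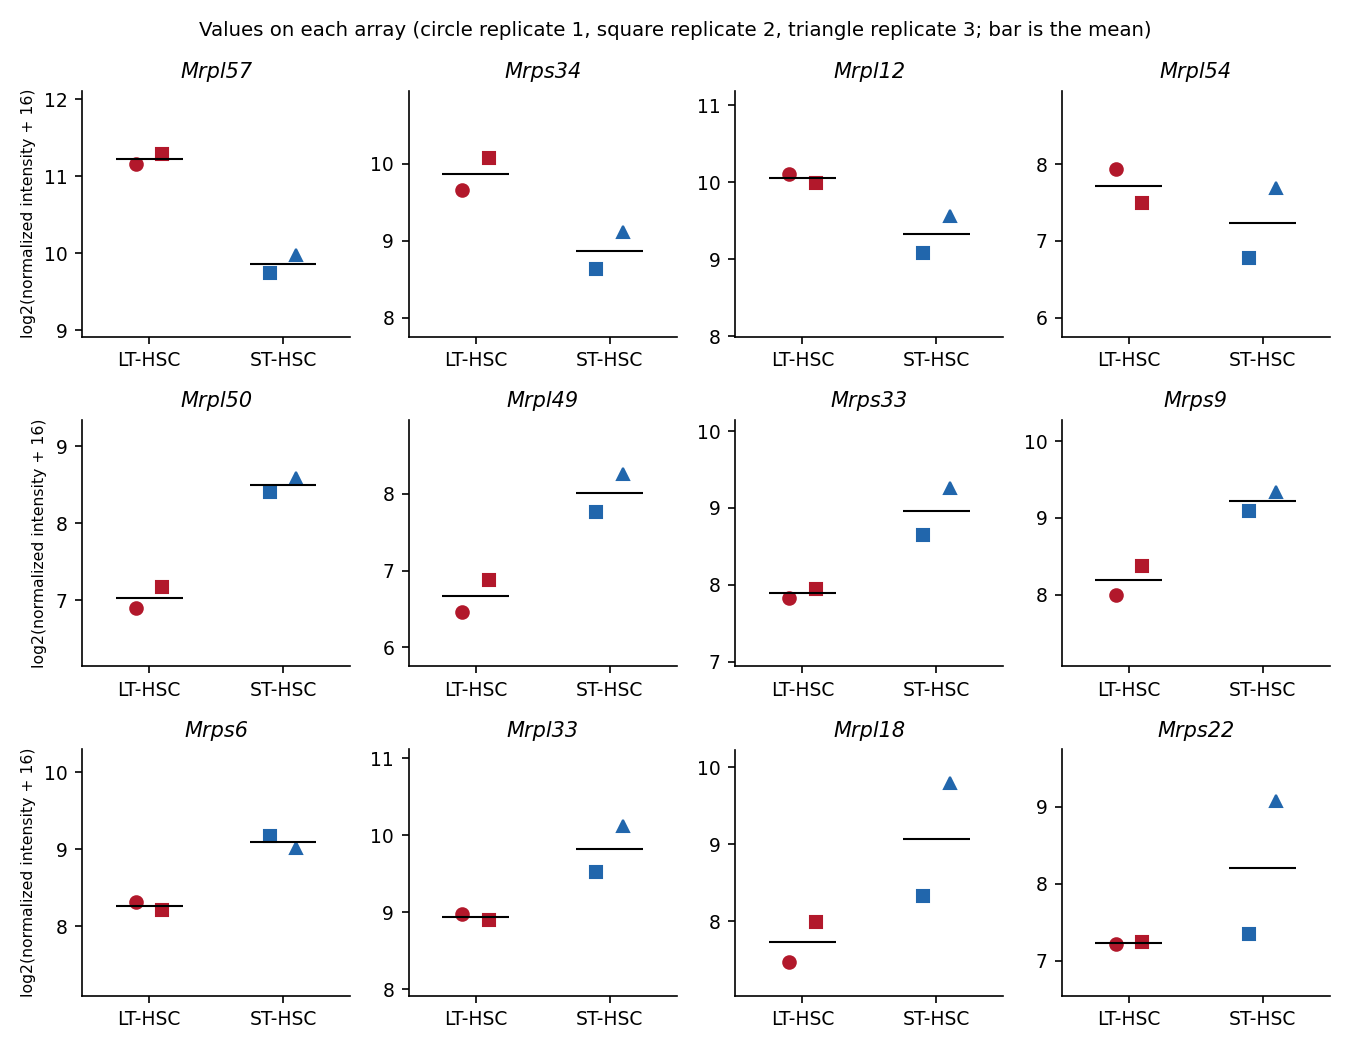
Normalized values on each array (log2 of normalized intensity plus 16, vertical axis, the same span in each panel) for 12 genes, LT-HSC left and ST-HSC right, with the mean as a bar. The called Mrpl57 and Mrpl50 have close pairs, while Mrpl18 and Mrps22 have ST-HSC replicate 3 far above replicate 2.

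The ST-HSC arrays differed from each other more than the LT-HSC arrays did over these genes. ST-HSC replicate 3 read above replicate 2 for 68 of 76 genes (89.5%), against 52.6% of all tested genes, with a median gap of 0.55, against 0.03 over all tested genes. LT-HSC replicate 2 read above replicate 1 for 55 of 76 (72.4%), against 51.6% of all tested genes, with a median gap of 0.11. The median size of the gap was 0.16 in LT-HSC and 0.56 in ST-HSC, against 0.23 in LT-HSC and 0.37 in ST-HSC over all tested genes. ST-HSC replicate 3 was the highest of the 4 arrays for 58 of 76 genes (76.3%), against 32.4% of all tested genes. In 15 genes it exceeded replicate 2 by over 1 log2 unit, and the extremes were Mrpl20 (1.75), Mrps22 (1.73) and Mrpl3 (-0.78). Mrps22 read 116 and 139 in LT-HSC, compared with 164 and 529 in ST-HSC, and Mrpl20 read 150.5 and 121 on the LT-HSC arrays, against 105 and 346 on the ST-HSC arrays. For both genes replicate 3 alone stood above the other 3 arrays.

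**Figure D3:**
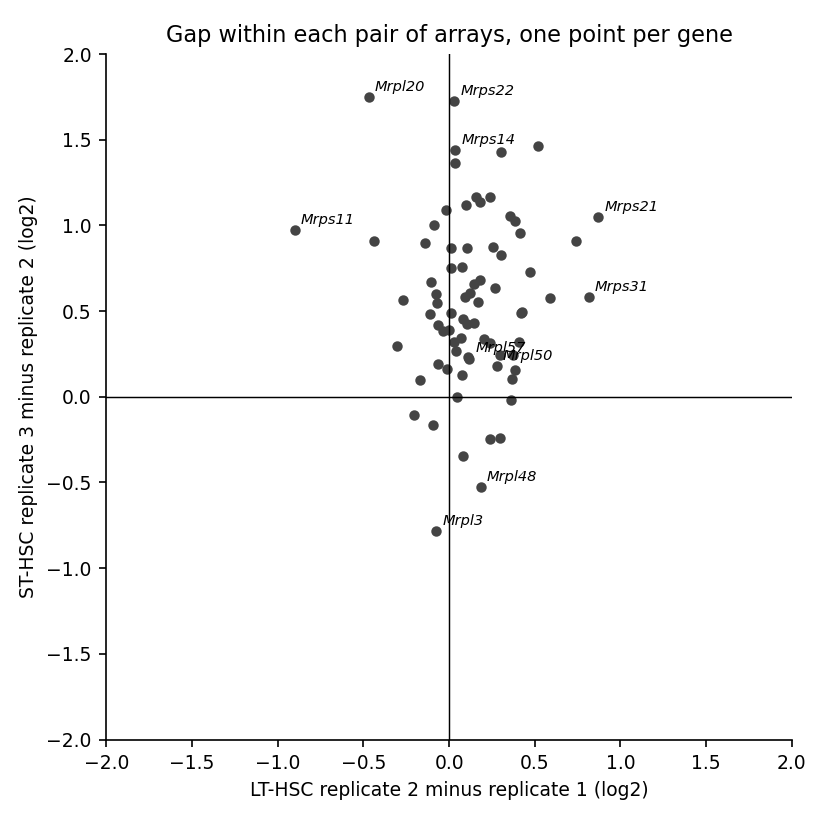
Gap between the arrays of each pair, in log2 units, for each of the 76 genes: LT-HSC replicate 2 minus replicate 1 (horizontal) and ST-HSC replicate 3 minus replicate 2 (vertical). Points spread mainly upwards, with 68 genes above 0 on the vertical axis and medians of 0.11 (horizontal) and 0.55 (vertical).

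The median of the whole group depended on which ST-HSC array was present. Without ST-HSC replicate 3 the median difference was -0.02, against -0.05 over all genes, and 40 of 76 differences were below 0. Then 4 genes were called higher (Mrpl12, Mrpl54, Mrpl57 and Mrps34), where 13.1% of all genes were, and 7 lower (Mrpl3, Mrpl33, Mrpl49, Mrpl50, Mrps33, Mrps6 and Mrps9), where 14.7% of all genes were. Without ST-HSC replicate 2 the median was -0.64, against -0.04 over all genes, with 36 genes called lower, where 19.1% of all genes were, and 5 called higher, where 17.9% were. Each of these comparisons has a lone ST-HSC array, which is assumed to vary like the LT-HSC pair. The signs of 19 genes turned without replicate 3. Neither this share nor that of differences below 0 was counted over all genes there. Mrpl20 was at -1.22 without replicate 2 and at 0.53 without replicate 3.

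The calls common to both of these comparisons were fewer. Called lower in both were Mrpl33, Mrpl49, Mrpl50, Mrps33, Mrps6 and Mrps9, and called higher in both were Mrpl12, Mrpl57 and Mrps34. The share of all tested genes called in both was not counted, so these calls have no background to be read against. Both comparisons also use the same LT-HSC pair and its spread, so a call in both is no independent check. Mrpl57 was at 1.48 without replicate 3 and 1.25 without replicate 2, and Mrpl50 at -1.38 and -1.56. Without LT-HSC replicate 1 none (0) was called in limma and 3 had an unadjusted p under 0.05, where 1.84% of all genes were called higher and 0.0941% lower. Without LT-HSC replicate 2 none (0) was called in limma and 4 had an unadjusted p under 0.05, where 1.68% were called higher and 0.156% lower. Mrpl57 then had an adjusted p in limma of 0.193 without replicate 1 and 0.174 without replicate 2, at nearly the same differences of 1.42 and 1.31.

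**Figure D4:**
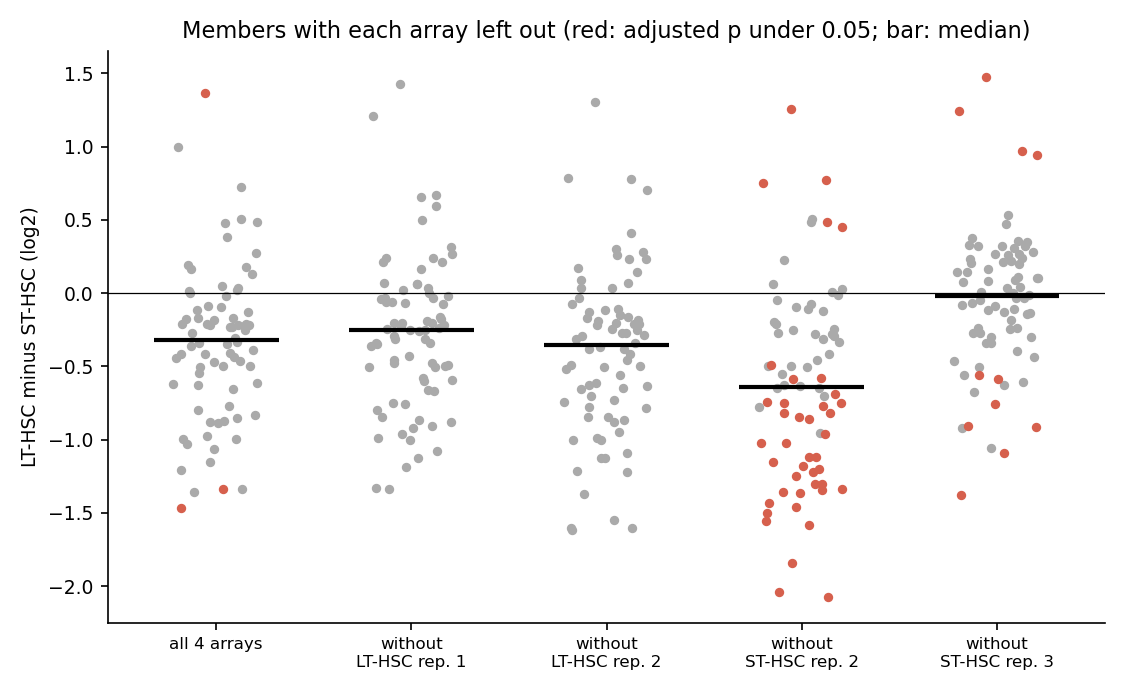
Differences between LT-HSC and ST-HSC (log2, vertical axis) for the 76 genes with all arrays and with each array left out, called genes in red and the median as a bar. The median moves to -0.64 without ST-HSC replicate 2 and to -0.02 without ST-HSC replicate 3.

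Values of other cell types and of the cell cycle differed between the groups or between the arrays of a group. The summed normalized intensity of 7 markers of maturing granulocytes was 3647 and 482 in LT-HSC, compared with 3612 and 52177 in ST-HSC, so ST-HSC replicate 3 stood far above the rest. All 7 were above the filter and none (0) was called. The 6 measured erythroid markers summed to 1980 and 2246 on the LT-HSC arrays, against 3452 and 7391 on the ST-HSC arrays, with Hba-a1 and Epb42 below the filter and 1 lower call (Car2). Of 29 genes of G2 and mitosis 24 were called lower in LT-HSC, with sums of 4635 and 7067 in LT-HSC, compared with 19047 and 27860 in ST-HSC. All 8 plasma cell markers were called higher in LT-HSC, with sums of 56195 and 55533, against 1668 and 3229 in ST-HSC. Of 7 B-cell markers 4 were called higher in LT-HSC, with sums of 4372 and 4920, against 253 and 372 in ST-HSC. No measured gene of these lists was at 0 on any array, and Cd22 alone among the B-cell markers was below the filter. Of the stem cell markers Cd34, which divided the gates, read 18.3 and 23.5 on the LT-HSC arrays, against 841 and 1142 on the ST-HSC arrays, and Kit was also lower (-1.02). These 2 were the calls among 7 tested stem cell markers, of which 6 had differences below 0. The others, Flt3, Procr, Hlf, Mecom and Slamf1, did not pass. The 7 summed to 3789 and 2882 in LT-HSC, compared with 6316 and 4364 in ST-HSC. The part of any of these cells or of the cell cycle in the values of the ribosomal genes was not tested. In RNA of sorted populations, a smaller share of cells expressing a gene and less of its RNA per cell cannot be told apart.

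Genes that act with the mitoribosome were counted in lists of their own, to be read beside the 7.92% of all tested genes called higher and 6.4% called lower, and the median of -0.08. Without ST-HSC replicate 2 and 3 the medians were -0.61 and -0.37 for assembly genes, and -0.86 and -0.44 for translation factors. For aminoacyl-tRNA synthetases they were -0.79 and -0.34, and for genes of mitochondrial DNA transcription and replication -0.55 and -0.47. Of 4 measured proteins of the mitoribosome with other names, none (0) was called in limma, 1 had an unadjusted p under 0.05, and all 4 differences were below 0. They were Chchd1 (-0.79), Ptcd3 (-0.56), Gadd45gip1 (-0.26) and Dap3 (-0.23). Of 30 tested genes of mitoribosome assembly 1 was lower, the GTPase gene Noa1, with 52.0 and 78.1 in LT-HSC, compared with 173 and 258 in ST-HSC (-1.37, SE 0.35), and the median was -0.46. Of 16 translation factors 1 was lower, Guf1, a GTPase of the elongation step, with 18.2 and 36.9 on the LT-HSC arrays, against 90.4 and 96.2 on the ST-HSC arrays (-1.23, SE 0.31), and the median was -0.64. Tufm, the elongation factor that brings aminoacyl-tRNA, differed by -0.85 and Mrrf, the recycling factor, by -0.75, and neither passed. Of 17 mitochondrial aminoacyl-tRNA synthetases 1 was higher, Ears2 (1.92, SE 0.39), and the median was -0.61. Of 21 genes of mitochondrial DNA transcription and replication 2 were lower, Mterf2 (-1.45) and Mterf1a (-1.55), both of the family of mitochondrial termination factors, and the median was -0.36.

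Of 13 tested regulators of mitochondrial gene expression 2 were lower (15.4%, against 6.4% of all tested genes). Gabpb1, the partner subunit of GABPA, read 70.2 and 148 in LT-HSC, compared with 298 and 462 in ST-HSC (-1.56, SE 0.38), and Myc differed by -1.85 (SE 0.31). Gabpa itself read 224 and 258 on the LT-HSC arrays, against 468 and 451 on the ST-HSC arrays, without passing (-0.86, SE 0.27, limma adjusted p = 0.0855). Nrf1, the factor of the TGCGCA motif, read 262 and 169 in LT-HSC, compared with 167 and 120 in ST-HSC, also without passing (0.60, SE 0.35). Of 25 tested genes of mitochondrial protein import and folding 4 were lower (16%, against the same 6.4%). These were Hspd1 and Hspe1, the matrix chaperonin and its partner (-0.91 and -1.01), and Timm44 and Timm8a1 of the inner membrane and intermembrane space (-1.09 and -1.66). The median was -0.40, and it was -0.56 and -0.23 without ST-HSC replicate 2 and 3.

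The products of mitochondrial translation join nuclear-encoded subunits of oxidative phosphorylation. Of 74 tested nuclear genes of these complexes 2 were higher (2.7%, against 7.92% of all tested genes), Ndufa1 (1.40, SE 0.14) and Ndufv3 (0.95, SE 0.18). None (0) was lower in limma, and the median was -0.18. The ST-HSC arrays also differed over these genes, with a median gap of 0.52. The median difference was -0.32 without ST-HSC replicate 2 and 0.02 without replicate 3. Cytosolic ribosomal protein genes had a median of -0.22 over 46 tested, with 3 lower (6.52%, near the 6.4% of all tested genes). This median was -0.27 and -0.22 without ST-HSC replicate 2 and 3. Ribosome biogenesis genes, which act in the nucleolus, had a median of -0.77 over 40. Of them 10 were lower (25%, against 6.4% of all tested genes), among them Nop10 (-1.74, SE 0.22). Their medians were -0.78 and -0.62 without ST-HSC replicate 2 and 3. The difference between these lists and the mitochondrial ribosomal protein genes was not tested.

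**Figure D5:**
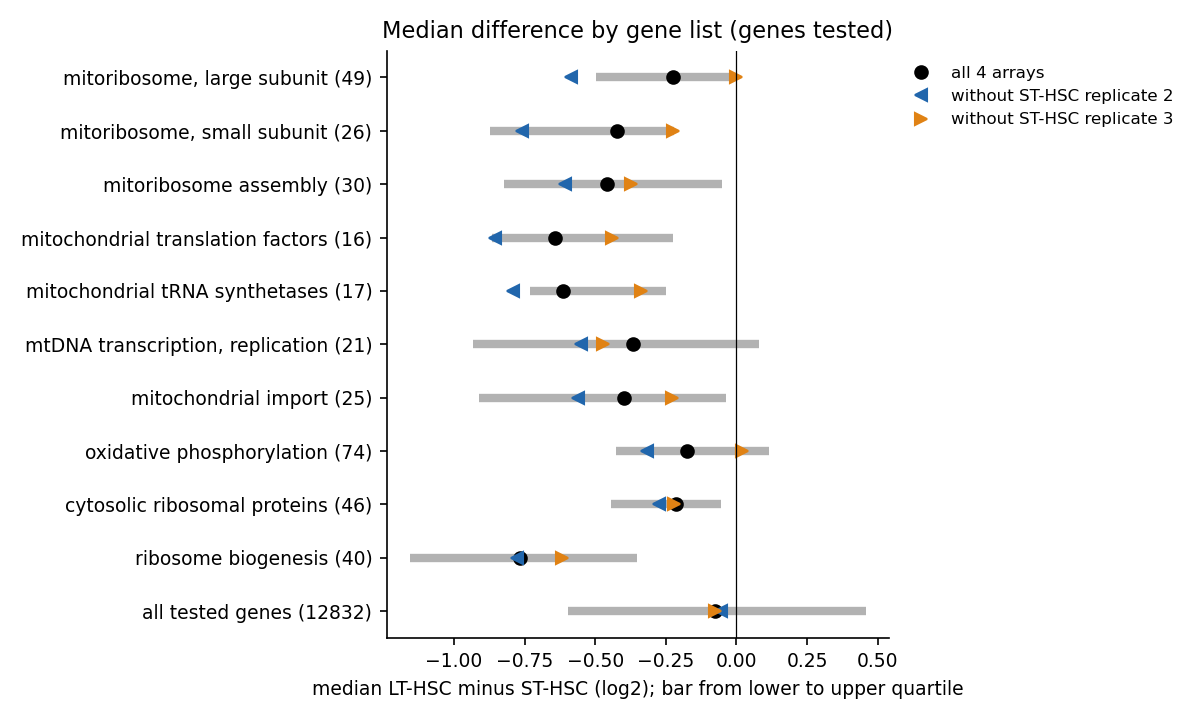
Median difference between LT-HSC and ST-HSC (log2, horizontal axis) for gene lists, with all arrays as a circle, without ST-HSC replicate 2 or 3 as triangles, and the range between quartiles as a bar. The large subunit of the mitoribosome lies at -0.58 without replicate 2 and at -0.00115 without replicate 3, while ribosome biogenesis stays between -0.78 and -0.62.

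Several genes were read by more than 1 probe set, which is a check within the arrays. Of 140 member probe sets above the filter, 2 were called higher in LT-HSC and 4 lower, where 6.71% and 5.47% of all tested probe sets were. Both higher ones belong to Mrpl57. Of the lower ones, 2 are further probe sets of Mrps23 and Mrps25, whose brightest probe sets did not pass. This Mrps25 probe set read 1.12 and 6.59 on the LT-HSC arrays, against 53.3 and 49.5 on the ST-HSC arrays (-1.70, SE 0.30, limma adjusted p = 0.0181), while the brightest read 235 and 331 in LT-HSC, compared with 379 and 413 in ST-HSC (-0.42). Both LT-HSC values of the called Mrps25 probe set lay under the filter cut of 16.7 intensity units. It entered the test only through its ST-HSC values, so its call is no separate check. The Mrps23 probe set read 32.4 and 61.3 on the LT-HSC arrays, against 145 and 238 on the ST-HSC arrays (-1.58, SE 0.38, limma adjusted p = 0.043), while the brightest differed by -0.997. The identifier of this called probe set marks possible matches to other transcripts. The remaining Mrps23 probe set differed by -0.60, with overlapping groups. Of 37 genes with more than 1 tested probe set, 25 had the same sign on all and 12 had both signs. Among those 12 were Mrps31, at -1.21 and 0.31, and Mrpl1, at -0.77 on its brightest and 0.28 and 0.11 on the others. Mrps9, also among them, was at -1.03 on its brightest and at -1.07, -0.78 and 0.33 on the others. Mrpl44 had the same sign on all, but its probe sets ranged from -1.21 to -0.30. No gene had probe sets called in opposite directions. For 12 genes the brightest probe set has an identifier that marks possible matches to other transcripts, Mrpl19, Mrpl44 and Mrps6 among them.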

How the data were processed

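Per the labels' protocols, the RNA of the sorted cells went through 2 amplification rounds before biotin labelling. The authors deposited linear intensities, a value for each probe set on each array, and the sources used here name neither the software nor the scaling that made them. Of 45101 probe sets, the 64 Affymetrix controls entered no test. Median intensities in LT-HSC were 19.1 and 28.3, against 26.9 and 25.9 for ST-HSC. Intensities carry no counts, and the 2 arrays per group limit the precision.

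Intensities were quantile normalized, 16 was added and log2 taken, which understates the fold of dim probe sets. Probe sets with a mean at or under the 40th percentile were left out, and 27022 remained. LT-HSC and ST-HSC were compared across all of them with limma 3.58.1 in R 4.3.3 (lmFit, eBayes with an intensity trend), with Benjamini-Hochberg adjustment and a threshold of 0.05. The fit had 2 residual and 4.83 prior degrees of freedom. An exact permutation test of 2 against 2 arrays cannot give a two-sided p below 0.33 and was not used. The procedure was run on simulated data with changes of 2 log2 units, larger than that of any mitochondrial ribosomal protein gene. Spreads were shuffled among probe sets there, so the simulation does not bear on the calls reported here. Printed intensities are those deposited, while differences, means and summed markers use normalized values.

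Symbols came from the platform annotation. A further 2 genes have only probe sets shared with another symbol and were not used. All 76 genes matched a RefSeq table of GRCm38.p6. Every gene of the rule could be named, and from other lists up to 4 called genes per direction. The members and lists were chosen with earlier results of these data known. Alternatives were other normalizations, pseudocounts, filters, spread models and probe set rules, and each array left out in turn after normalization, with the filter applied again. A further detail of the genotype, the same in both groups, is not reported here.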

Additional observations from a re-analysis of the deposited data

How the results depend on the processing

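With 2 arrays per group, the counts depended on single arrays. A fit with 1 array left out takes its residual spread from the intact pair alone. Without an LT-HSC array this is the ST-HSC pair, whose median gap size was 0.56, against 0.16 in LT-HSC. Fewer calls there need not mean smaller differences. With 1 array left out, higher calls ranged from 0 to 5 and lower calls from 0 to 36 of 76 genes, and all genes called ranged from 235 to 4786, against 1837 with all arrays. Higher calls numbered 2 with the mean of all probe sets of a gene, where Mrps34 was added. Lower calls numbered 1 with a pseudocount of 1, with a pseudocount of 64 and with no filter, where Mrpl49 was lost, and 4 with the mean of all probe sets. They numbered 3 with arrays centred on their medians and with the filter at the 60th percentile, where Mrps5 was added (limma adjusted p = 0.0375 and 0.0445), and without the intensity trend Mrps5 passed (0.0497) while Mrpl49 did not. Under the alternatives that kept all arrays, Mrpl57 and Mrpl50 passed in every one, and Mrpl49 missed the threshold in 5. The median stayed below 0 under all alternatives, at -0.25 with arrays centred on their medians and -0.35 without normalization. Without ST-HSC replicate 3 it was only -0.02, against -0.05 over all genes. The median over all genes was also below 0 under every alternative.

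Signs of genes near 0 turned. Mrpl3 was at 0.16 with arrays centred on their medians and at 0.0603 without normalization, and Mrps18c at 0.00979 when centred. With the mean of all probe sets Mrpl51 was at -0.30 and Mrpl52 at -0.14, and Mrpl48 was at -0.29 on its brightest probe set without a shared identifier. With an array left out, Mrpl51 ranged from -0.20 to 0.23, Mrpl3 from -0.56 to 0.22, Mrpl14 from -0.0497 to 0.38 and Mrps18c from -0.49 to 0.14. In none of these alternatives was a gene called on the side opposite to its sign with all arrays. Mrpl3 without ST-HSC replicate 3 and Mrps18c without ST-HSC replicate 2 were called lower, the side they had with all arrays. No paired analysis was possible because the groups share only 1 replicate number, 2.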
